A study of Mus musculus with 12 samples.

Results

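The 10 genes described here encode proteins that the mouse colon epithelium secretes against bacteria: *Reg3b*, *Reg3g*, *Lypd8*, *Slpi*, *Retnlb*, *Lcn2*, *Ang4*, *Wfdc2*, *Dmbt1* and *Pglyrp1*. They were taken by gene symbol from a table of 54532 genes, and all 10 were in it. They had been chosen with the FPKM (a fragment count divided by gene length and depth, here with a further scaling between libraries) of these same libraries known. Their levels and differences are therefore a description, and no test is given for them. Of the 10, 8 reached 1 FPKM in 3 or more libraries, and *Reg3g* and *Lcn2* did not.

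Colonoids, organoids grown from colonic epithelial stem cells, came from healthy adult *Hmox1* fl/fl mice (control) and from mice that also carried Vil1 Cre, which deletes the floxed *Hmox1* gene in intestinal epithelium (labelled KO). *Hmox1* encodes heme oxygenase-1, the enzyme that breaks down heme. Both genotypes thus shared the floxed alleles and the growth in L-WRN conditioned medium, which supplies Wnt, R-spondin and noggin. Colonoids received vehicle or 200 µM hemin, an oxidised form of heme, for 24 hours, and poly-A RNA was sequenced in 3 libraries of each of the 4 groups. One library of the hemin-treated colonoids labelled KO, replicate 3, has its genotype written as Hmox1 fl/fl /Vil1 Cre, where the others read Hmox1 KO /Vil1 Cre. How many mice or colonoid lines stood behind a genotype is not given in the sources used here, so the spread between libraries may be technical. Control colonoids carried no Cre, so the deletion, the Cre and the origin of the lines cannot be told apart.

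The libraries held 11648801 to 25101868 fragments on genes. *Hmox1* was at 7.62, 6.85 and 7.90 FPKM in control colonoids with vehicle and at 3.14, 2.11 and 2.31 in those labelled KO. With hemin it was at 503, 483 and 382 FPKM in controls and at 1279, 1392 and 1271 in those labelled KO. By the limma test described with the related genes, it was lower in the colonoids labelled KO with vehicle (log2 fold change -1.27, adjusted p = 1.25e-05). With hemin it was higher in them (1.53, adjusted p = 3.29e-06). The latter goes against the label, so these colonoids are called labelled KO. FPKM count the whole gene, so they cannot show whether its floxed part was deleted. The paper reports deletion of *Hmox1* expression in the intestinal epithelium of these mice, with RT-qPCR on sorted colonic epithelial cells. The epithelial genes *Epcam*, *Cdh1*, *Krt8*, *Krt18* and *Vil1* summed to between 4069 and 7004 FPKM in every library. Of the leukocyte list, *Ptprc* reached at most 0.0190 FPKM, *Csf3r* and *Elane* at most 0.121, *Itgam* at most 0.519 and *Cd68* at most 5.16, and *Mpo* was at 0, while *Ly6g* reached 337. The 7 leukocyte genes summed to 309 to 341 FPKM in controls with vehicle and 111 to 130 with hemin, nearly all of it *Ly6g*. The sum was 314 to 322 and 208 to 242 FPKM in those labelled KO. The fibroblast list, *Col1a1*, *Col1a2*, *Col3a1*, *Dcn* and *Pdgfra*, summed to at most 0.0791 FPKM. Neutrophils also make the products of *Slpi*, *Pglyrp1* and *Lcn2*, and the part of leukocytes in their values was not tested.

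Antimicrobial proteins of the gut keep bacteria away from the epithelial surface. Some bind and kill bacteria, some bind flagella or clump cells in the mucus, and some withhold iron or hold back proteases. Goblet cells, which also make mucus, and absorptive colonocytes both secrete them, and signals from microbes and from immune cells, among them interleukin-22 acting through STAT3, are known to raise several of them.

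Promoter windows of 300 bases, most of each upstream of a RefSeq start site (GRCm38.p6), were at hand for 8 of the 10 genes. They are shown for 4 genes with large differences by genotype or by hemin. Capitals mark matches, on either strand, to TTCNNNGAA (a STAT site), TGANNNNGC (the core of the antioxidant response element) or GGGANTTNC (a kappa B site). *Slpi* (chr2:164356458-164356757, minus strand) and *Wfdc2* (chr2:164562465-164562764, plus strand) encode related whey acidic protein inhibitors from neighbouring stretches of chromosome 2. *Reg3b* (chr6:78370635-78370934, plus strand) and *Ang4* (chr14:51773541-51773840, minus strand) had opposite responses to hemin in controls.
Slpi: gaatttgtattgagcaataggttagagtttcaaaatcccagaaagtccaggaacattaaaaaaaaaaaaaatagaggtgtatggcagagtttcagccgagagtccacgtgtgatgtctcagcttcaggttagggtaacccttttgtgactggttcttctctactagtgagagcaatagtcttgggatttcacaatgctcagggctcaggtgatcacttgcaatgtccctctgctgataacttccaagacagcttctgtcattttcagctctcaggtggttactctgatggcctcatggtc
Wfdc2: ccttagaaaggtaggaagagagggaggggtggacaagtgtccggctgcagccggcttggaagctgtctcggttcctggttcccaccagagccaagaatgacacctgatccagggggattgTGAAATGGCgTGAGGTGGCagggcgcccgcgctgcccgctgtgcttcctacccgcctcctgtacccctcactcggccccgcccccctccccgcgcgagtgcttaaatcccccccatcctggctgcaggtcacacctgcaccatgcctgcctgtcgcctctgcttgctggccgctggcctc
Reg3b: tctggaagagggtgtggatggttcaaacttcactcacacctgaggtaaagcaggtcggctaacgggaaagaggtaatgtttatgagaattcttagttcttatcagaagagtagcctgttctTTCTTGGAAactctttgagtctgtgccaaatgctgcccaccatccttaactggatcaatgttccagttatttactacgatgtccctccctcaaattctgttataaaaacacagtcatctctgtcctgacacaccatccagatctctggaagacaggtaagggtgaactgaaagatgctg
Ang4: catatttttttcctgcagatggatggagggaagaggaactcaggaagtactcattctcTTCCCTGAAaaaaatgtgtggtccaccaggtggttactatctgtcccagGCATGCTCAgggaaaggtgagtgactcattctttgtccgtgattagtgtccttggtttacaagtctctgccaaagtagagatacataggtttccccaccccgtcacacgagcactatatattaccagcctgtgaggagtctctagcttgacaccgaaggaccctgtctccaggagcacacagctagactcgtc
The *Slpi* window held no match. The *Wfdc2* window held 2 matches to the antioxidant core, starting 130 and 120 bases before the start site. *Reg3b* had 1 STAT match 129 bases before its start, and *Ang4* had 1 STAT match at 192 bases and 1 antioxidant core match at 143 bases. No matches in these windows overlapped. Of 32851 mouse windows of this length, 8.30% held a STAT match, 41.3% an antioxidant core match and 4.26% a kappa B match. Among the windows that are not shown, *Pglyrp1* held 3 antioxidant core matches and 1 kappa B match, *Reg3g* held 1 of each, and *Lypd8* and *Lcn2* held none. In the gene models of the table, which match GENCODE M21, *Slpi* spans chr2:164354070-164389095, so the RefSeq start lies well inside the counted gene. The *Wfdc2* window also lies inside its counted gene, chr2:164562413-164568510. Most of the *Reg3b* window does too, as that gene starts at chr6:78370657.

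*Lypd8* was by far the most abundant of the 10. It encodes a heavily glycosylated protein that is shed from colonocytes and binds the flagella of Gram-negative bacteria (mm10 chr11:58379043-58390728). In control colonoids it was at 1538, 1483 and 1388 FPKM with vehicle and at 2331, 2007 and 2853 with hemin. In those labelled KO it was at 2226, 2348 and 2256 FPKM with vehicle and at 4741, 4205 and 4210 with hemin. The hemin-treated libraries lay above the vehicle-treated ones in both genotypes, and the libraries labelled KO lay above the controls under both treatments. The mean was 1470 ± 76.1 FPKM (SD, n = 3) in controls with vehicle and 4386 ± 308 in hemin-treated colonoids labelled KO, and *Lypd8* ranked 11 among 12740 genes in the first and 4 in the second. On the log2(FPKM + 1) scale, on which all differences of the 10 genes are given with a standard error from the spread of that gene within the 4 groups, the hemin differences were 0.69 ± 0.12 in controls and 0.94 ± 0.12 in those labelled KO. The genotype differences were 0.63 ± 0.12 with vehicle and 0.88 ± 0.12 with hemin. None of the 4 passed a difference of 1.

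The surface colonocyte list, *Krt20*, *Slc26a3*, *Aqp8*, *Car1*, *Car4* and *Guca2a*, moved in both directions beside *Lypd8*. Its 6 genes summed to 2742 to 2989 FPKM in controls with vehicle and 4835 to 7273 with hemin, and to 1998 to 2049 and 3380 to 4227 in those labelled KO, most of it *Car1*, a carbonic anhydrase. By the limma test described with the related genes, *Car1* rose with hemin in controls and *Aqp8*, a water channel, fell, where 2.17% and 5.93% of all genes were called in those directions. In colonoids labelled KO the keratin gene *Krt20* and *Car1* rose with hemin and *Car4* and *Guca2a* fell, where 4.87% and 8.07% of all genes were called. The hemin differences in controls and in those labelled KO were 0.77 and 1.41 for *Krt20*, 0.97 and -0.73 for *Slc26a3*, -2.00 and 0.48 for *Aqp8*, 1.18 and 1.11 for *Car1*, -0.68 and -3.43 for *Car4* and 0.13 and -1.95 for *Guca2a*. Against controls, colonoids labelled KO had *Slc26a3*, *Aqp8* and *Car4* higher and *Guca2a* lower with vehicle, and *Aqp8* and *Car4* higher and *Guca2a* lower with hemin. The part of colonocytes in the values of *Lypd8* was not tested.

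**Figure D1:**
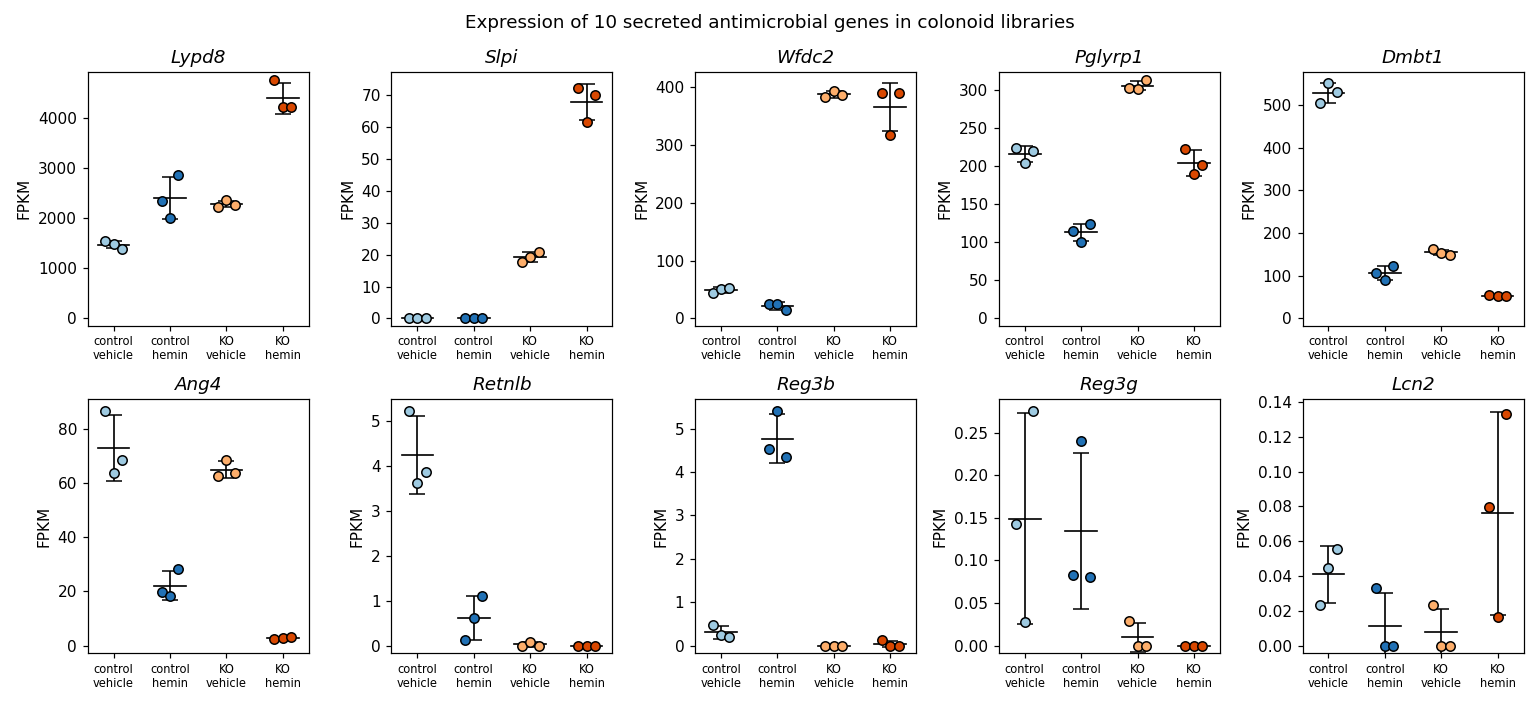
FPKM of the 10 genes, 1 panel per gene with its own linear axis, in the 4 groups of 3 libraries. Points are libraries in the order of their replicate numbers and bars are the mean ± SD, and a reader should see *Slpi* at or near 0 in all 6 control libraries, *Reg3b* above 4 FPKM only in hemin-treated controls, and *Reg3g* and *Lcn2* below 0.3 FPKM in all 12 libraries.

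Both whey acidic protein genes were higher in every library labelled KO than in every control library. *Slpi* encodes secretory leukocyte protease inhibitor, an inhibitor of serine proteases with antibacterial activity. With vehicle it had no fragment in any control library and was at 17.7, 19.4 and 20.7 FPKM in the colonoids labelled KO. With hemin it had 0, 1 and 0 fragments in controls and was at 72.2, 61.4 and 70.2 FPKM in those labelled KO. The groups did not overlap under either treatment. Against a floor of 3 fragments in each control library, *Slpi* was at least 118.5-fold higher in vehicle-treated colonoids labelled KO. With hemin, the 1 control fragment gave a ratio of 2752 with a 95% interval of 494 to 108713. This and the other intervals on pooled fragments cover counting error only. Without control replicate 1 or 3 the ratio was 1853 or 1831, and without replicate 2, which held the fragment, *Slpi* was at least 308-fold higher against the floor. Within the colonoids labelled KO, the mean with hemin was 3.52 times that with vehicle, a difference of 1.76 ± 0.07.

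*Wfdc2* encodes a small secreted inhibitor with the same fold (mm10 chr2:164562413-164568510). In controls it was at 43.9, 50.6 and 53.5 FPKM with vehicle and at 25.0, 25.3 and 14.3 with hemin. The libraries labelled KO held it at 383, 394 and 387 FPKM with vehicle and at 390, 317 and 390 with hemin. Every library labelled KO lay above every control library. The genotype ratio of mean FPKM was 7.87 with vehicle and 17.0 with hemin, with log2 differences of 2.96 ± 0.20 and 4.06 ± 0.20. Hemin-treated controls lay below vehicle-treated ones by 1.20 ± 0.20 on the log2 scale, and by 0.94 without replicate 3 of the hemin-treated controls. Among libraries labelled KO hemin and vehicle overlapped, with a difference of -0.09 ± 0.20.

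These genotype differences stood beside a difference in genes of colon position. *Hoxb13* and *Hoxd13*, transcription factors known from the distal colon, had no fragment in any control library. With the KO label *Hoxb13* was at a mean of 110 FPKM with vehicle and 132 with hemin, and *Hoxd13* at 59.1 and 32.1. *Hoxa13* was at 7.55 and 12.1 FPKM in controls and at 29.0 and 43.3 in those labelled KO, and *Hoxd10* reached at most 0.876. Summed over these 4 genes the libraries ranged from 6.91 to 13.9 FPKM in controls and from 194 to 208 in those labelled KO. Genotype and segment of origin cannot be told apart in this design.

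*Ang4* and *Retnlb*, known from goblet cells and in the case of *Ang4* also from Paneth cells, were lower with hemin in controls. *Ang4* encodes a bactericidal ribonuclease of the angiogenin family (mm10 chr14:51763878-51773590). In controls it was at 86.8, 63.7 and 68.4 FPKM with vehicle and at 19.7, 18.4 and 28.3 with hemin. Those labelled KO had 62.7, 68.4 and 63.9 FPKM with vehicle and 2.55, 2.88 and 3.24 with hemin. The genotypes overlapped with vehicle, with a difference of -0.15 ± 0.17, and did not overlap with hemin. The mean with hemin was 3.30 times lower than with vehicle in controls and 22.5 times lower in those labelled KO. The log2 differences were -1.69 ± 0.17 and -4.09 ± 0.17, so that the response in the colonoids labelled KO was lower by 2.40 ± 0.24 on the log2 scale.

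*Retnlb* encodes resistin-like molecule beta, a goblet cell protein that damages bacterial membranes (mm10 chr16:48816856-48818892). It had 60, 43 and 37 fragments in controls with vehicle, or 5.23, 3.62 and 3.87 FPKM. With hemin controls had 1, 5 and 9 fragments, a pooled ratio of vehicle to hemin of 6.89 with an interval of 4.03 to 12.6, and of 11.5 without replicate 3 of the hemin-treated controls. In the colonoids labelled KO 1 of the 6 libraries had 1 fragment and the others had none. With vehicle the pooled ratio of control to those labelled KO was 149, with an interval of 26.4 to 5939. Without replicate 3 of those labelled KO it was 99.5, and without replicate 2, which held the 1 fragment, controls were at least 16.3-fold higher against the floor. Because the colonoids labelled KO were at the floor with vehicle, no hemin ratio can be given for them.

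Goblet cell markers moved with hemin as well. In colonoids labelled KO, 8 of the 8 listed goblet genes fell with hemin by the limma test described under the related genes, with log2 fold changes of -3.32 for *Muc2*, -2.51 for *Fcgbp*, -2.18 for *Clca1*, -2.22 for *Tff3*, -3.08 for *Agr2*, -4.37 for *Spdef*, -2.65 for *Atoh1* and -2.18 for *Spink4*. In controls 4 of the 8 fell, namely *Clca1*, *Spdef*, *Atoh1* and *Spink4*. Of all genes tested, 8.07% fell with hemin in colonoids labelled KO and 5.93% in controls. The summed level of the 8 genes ranged from 1519 to 1717 FPKM in controls with vehicle and from 871 to 1189 with hemin, and from 2262 to 2372 and from 419 to 461 in those labelled KO. In bulk colonoids fewer goblet cells and less RNA per cell cannot be told apart, and the part of goblet cells in the values of *Ang4* and *Retnlb* was not tested. The 5 genes of the Paneth list summed to 10.6 to 13.0 FPKM in controls with vehicle and 3.64 to 5.39 with hemin, and to 3.67 to 4.41 and 0.605 to 1.12 in those labelled KO. Most of the control sum was *Mmp7*, a matrix protease that activates defensins, which averaged 10.4 FPKM with vehicle and fell by 1.38 with hemin in controls. *Mmp7* was also lower in colonoids labelled KO, by -2.88 with vehicle and -2.00 with hemin. *Lyz1* averaged 2.75 FPKM in vehicle-treated colonoids labelled KO and under 1 in the other groups. *Defa17* was at 0 in every library, *Defa24* reached at most 0.579 FPKM and *Itln1* at most 0.913. The part of Paneth-like cells was likewise not tested.

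*Dmbt1* and *Pglyrp1* encode proteins that recognise bacterial surfaces. *Dmbt1* is a large scavenger receptor cysteine-rich protein that agglutinates bacteria (mm10 chr7:131032053-131121630). In controls it was at 504, 551 and 530 FPKM with vehicle and at 106, 90.5 and 122 with hemin. Those labelled KO had 162, 153 and 149 FPKM with vehicle and 54.0, 52.4 and 52.0 with hemin. No 2 groups overlapped in any of the 4 comparisons, and *Dmbt1* was the member with the largest mean after *Lypd8* in vehicle-treated controls. Hemin went with a mean 4.97 times lower in controls and 2.93 times lower in those labelled KO, log2 differences of -2.31 ± 0.10 and -1.53 ± 0.10. The genotype difference was -1.76 ± 0.10 with vehicle and -0.98 ± 0.10 with hemin, the latter just short of 1. *Dmbt1* overlaps *Fgfr2* on the opposite strand with no shared exonic base.

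*Pglyrp1* encodes a secreted peptidoglycan recognition protein (mm10 chr7:18871331-18890459). In controls it was at 224, 204 and 219 FPKM with vehicle and at 114, 101 and 124 with hemin. In colonoids labelled KO it was at 302, 302 and 313 FPKM with vehicle and at 223, 189 and 201 with hemin. It was higher in the libraries labelled KO under both treatments and lower with hemin in both genotypes, with no overlap. The differences stayed under 1, at 0.50 ± 0.08 and 0.85 ± 0.08 by genotype and at -0.93 ± 0.08 and -0.58 ± 0.08 by hemin.

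The C-type lectins and the siderophore binder were at low levels. *Reg3b* encodes a lectin that binds Gram-negative bacteria (mm10 chr6:78370657-78373466). With vehicle it had 9, 5 and 3 fragments in controls and none in colonoids labelled KO. With hemin it had 59, 73 and 58 fragments in controls, or 4.53, 5.41 and 4.35 FPKM, and 2, 0 and 0 in those labelled KO. Within controls the pooled ratio of hemin to vehicle was 15.1, with an interval of 9.22 to 26.6. With hemin the pooled ratio of control to labelled KO was 142, with an interval of 38.8 to 1183. It was 78.2 without replicate 2 of those labelled KO, and without replicate 1, which held both fragments, controls were at least 32.3-fold higher against the floor. *Reg3b* was thus the member that was higher with hemin in controls while in the colonoids labelled KO it stayed at the floor. *Reg3g*, its neighbour on chromosome 6, encodes a lectin for Gram-positive bacteria and had at most 8 fragments in any library. *Lcn2*, which encodes lipocalin-2, a binder of bacterial siderophores, had at most 5 fragments, in a hemin-treated library labelled KO. The vehicle-treated controls had 5, 1 and 8 fragments of *Reg3g*, the hemin-treated ones had 2, 6 and 2, and the 6 libraries labelled KO had 1 in all. The genotypes overlapped with vehicle, and with hemin those labelled KO had no fragment. The hemin and vehicle libraries overlapped in both genotypes. For *Lcn2* the libraries labelled KO had 3, 1 and 5 fragments with hemin and 1, 0 and 0 with vehicle, and these libraries overlapped. No ratio is given for either gene at so few fragments.

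**Figure D2:**
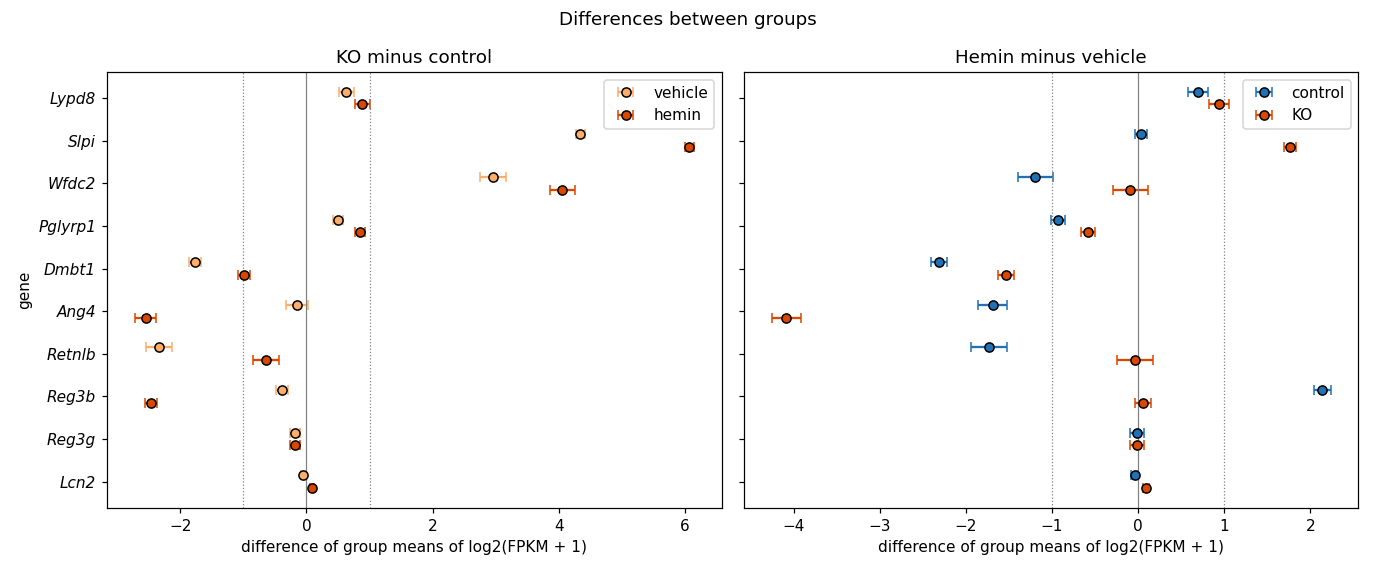
Differences of group means of log2(FPKM + 1) with their standard errors for the 10 genes, by genotype in the left panel and by hemin in the right panel. Dotted lines mark differences of -1 and 1, and a reader should see *Slpi* and *Wfdc2* to the right in the left panel, and *Reg3b* apart from *Ang4*, *Dmbt1*, *Retnlb* and *Wfdc2* in the right panel for controls.

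The 10 genes were also counted together. A gene was called separated when the 3 libraries of a group all lay on one side of the other 3 and the difference was above 1. With vehicle 2 were separated as higher in the colonoids labelled KO (*Slpi*, *Wfdc2*) and 2 as lower (*Retnlb*, *Dmbt1*), where 3.58% and 3.31% of the 12740 genes tested were separated. With hemin the counts were 2 (*Slpi*, *Wfdc2*) and 2 (*Reg3b*, *Ang4*), against 3.12% and 2.94%. Hemin against vehicle separated 1 as higher in controls (*Reg3b*) and 4 as lower (*Dmbt1*, *Retnlb*, *Ang4*, *Wfdc2*), against 2.19% and 5.88%. In colonoids labelled KO it separated 1 as higher (*Slpi*) and 2 as lower (*Ang4*, *Dmbt1*), against 4.92% and 8.09%. *Slpi* reached 1 FPKM only in libraries labelled KO, and *Retnlb* and *Reg3b* only in controls. Their place among the genes tested thus rests on the groups where they were high. *Reg3g* and *Lcn2* are among the 10 but not among the 12740. Since the genes were also chosen on these values, nothing is read from these shares. The median difference of the 10 was -0.10 and -0.05 by genotype with vehicle and hemin, and -0.49 and -0.03 by hemin in controls and in those labelled KO, where the medians over all tested genes lay between -0.01 and 0.04.

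The 10 genes summed to 2341 ± 70.8 FPKM in vehicle-treated controls and 2666 ± 453 after hemin. The sums under the KO label were 3210 ± 67.9 FPKM with vehicle and 5079 ± 353 after hemin. *Lypd8* made up 61.3% to 64.0%, 89.3% to 90.7%, 70.6% to 71.5% and 85.5% to 87.1% of the sum in these 4 groups. Without *Lypd8* the sum was 871 ± 6.20, 268 ± 26.4, 933 ± 4.90 and 694 ± 62.3 FPKM in the same order. *Dmbt1* held 60.6% of this remainder in controls with vehicle and 7.65% in colonoids labelled KO with hemin. *Wfdc2* went the other way, from 5.66% to 52.6%.

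**Figure D3:**
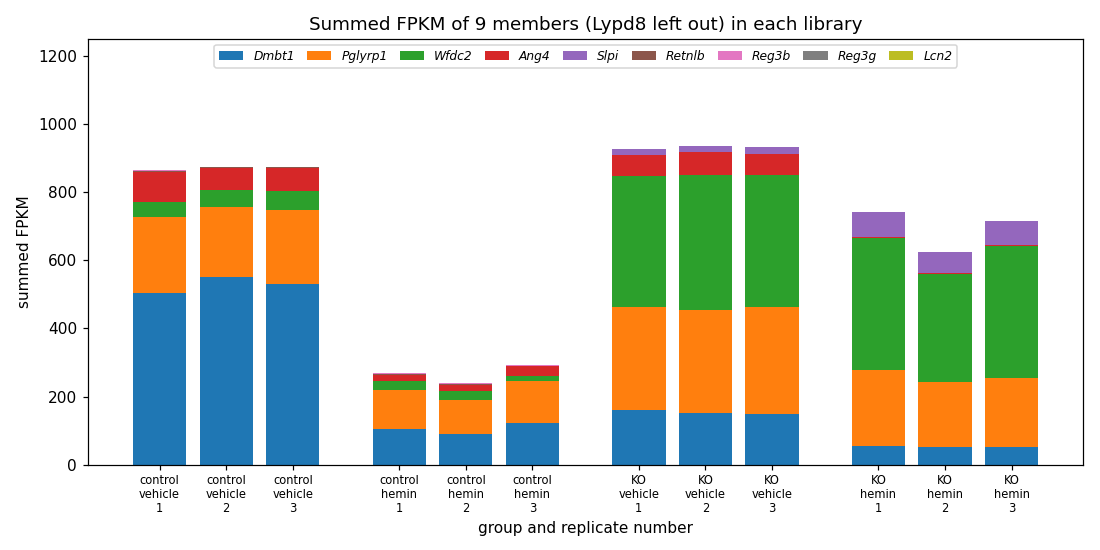
Summed FPKM of the 9 genes other than *Lypd8* in each of the 12 libraries, stacked by gene from 0. *Dmbt1* fills most of the control vehicle bars, *Wfdc2* and *Pglyrp1* most of the bars labelled KO, and the 3 hemin-treated control bars are the shortest.

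For the 8 genes that passed the filter on low values, the genes with the most similar pattern over the 12 libraries were found by Pearson's r on log2(FPKM + 1) among 12739 genes. These values describe 4 groups of 3 libraries that share their scaling, and carry no test. *Slpi* was most like *Scnn1a* (r = 0.999) and *Clic5* (0.995), and *Wfdc2* most like *Tyro3* (0.996) and *Hoxa10* (0.992). *Pglyrp1* was most like *Spink4* (0.991) and *Xbp1* (0.986), *Dmbt1* like *Zan* (0.994) and *Greb1* (0.989), and *Ang4* like *Pla2g4a* (0.992) and *Fgfr2* (0.992). *Lypd8* was most like *Ggh* (0.992) and *Tm4sf20* (0.990), *Retnlb* like *Alppl2* (0.987) and *Ifit1bl2* (0.987), and *Reg3b* like *Tpbg* (0.983) and *Cyp1b1* (0.983).

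Other antimicrobial genes were taken from a list of 26, of which 10 passed the filter. These were tested with limma over all 12740 genes, with p-values adjusted by the Benjamini-Hochberg method, and called where the adjusted p was under 0.05 and the log2 fold change above 1 in size. With vehicle 7 of the 10 rose and 1 fell in colonoids labelled KO, where 3.53% and 3.27% of all genes were called, and with hemin 5 rose and 1 fell, against 3.1% and 2.91%. *Mptx1*, *Pla2g2f* and *Lyz1* would not have passed the filter without libraries labelled KO, nor *Saa3* without controls, so the filter favoured a difference in these 4. With hemin *Pla2g2f* (0.21), *Lyz1* (0.36) and *Saa3* (-0.78) were not called by genotype. The list was also chosen with earlier results of these data known, and nothing is read from its counts. Of the other 6 genes, 4 rose and 0 fell with vehicle and 4 rose and 1 fell with hemin. *Mptx1*, a pentraxin of the mucosa, had no fragment in any control library and averaged 79.4 and 43.1 FPKM in those labelled KO with vehicle and hemin. *Saa1*, a serum amyloid A that carries retinol, rose by 3.51 (limma adjusted p = 1.12e-05) with vehicle and 3.82 (limma adjusted p = 6.45e-06) with hemin. *Pla2g2f*, a secreted phospholipase, averaged 0.227 FPKM in controls and 23.6 in those labelled KO with vehicle, and 0.0583 and 0.228 with hemin. *Saa3* averaged 1.75 FPKM in controls with vehicle and 0.0763 in those labelled KO. *Reg4*, a lectin of enteroendocrine and goblet cells, rose by 2.74 with vehicle and fell by 1.24 with hemin (limma adjusted p = 8.32e-06). *Lyz1*, lysozyme, averaged 0.563 FPKM in controls and 2.75 in those labelled KO with vehicle. The near-identical *Sprr2a1* and *Sprr2a2*, small proline-rich proteins with antibacterial activity, rose by 1.17 and 1.55 with vehicle and by 1.78 and 1.87 with hemin, and *Sprr2a3* rose by 1.32 with hemin. How fragments were divided between these copies is uncertain. Enteroendocrine markers rose beside these genes, *Chga* by 2.19 with vehicle and 1.94 with hemin and *Chgb* by 2.32 and 2.11, while *Neurod1* was not called, at 0.95 and 0.32. The 3 genes summed to 22.1 to 28.1 FPKM in controls with vehicle and 16.2 to 26.0 with hemin, and to 127 to 132 and 87.6 to 99.4 in those labelled KO, and the part of enteroendocrine cells in the values of *Reg4* was not tested.

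Hemin raised 2 of the 10 in controls and lowered 1, against 2.17% and 5.93% of all genes, and raised 3 and lowered 4 in colonoids labelled KO, against 4.87% and 8.07%. *Pla2g2f* and *Lyz1* are among the 4 lowered and would not have passed the filter without vehicle-treated colonoids labelled KO. *Sprr2a1* and *Sprr2a2* rose in both genotypes, by 2.13 and 2.41 in controls and by 2.74 each in those labelled KO, where *Sprr2a3* rose by 1.23. *Saa1* fell by 1.84 in controls and by 1.53 in those labelled KO. *Reg4* fell by 3.41 in those labelled KO. The response of *Reg4* to hemin differed between the genotypes by -3.98 (limma adjusted p = 7.92e-08), where 2.57% of all genes responded more positively and 2.56% more negatively under the KO label. *Zg16*, a mucus lectin, was called in none of the 5 comparisons.

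**Figure D4:**
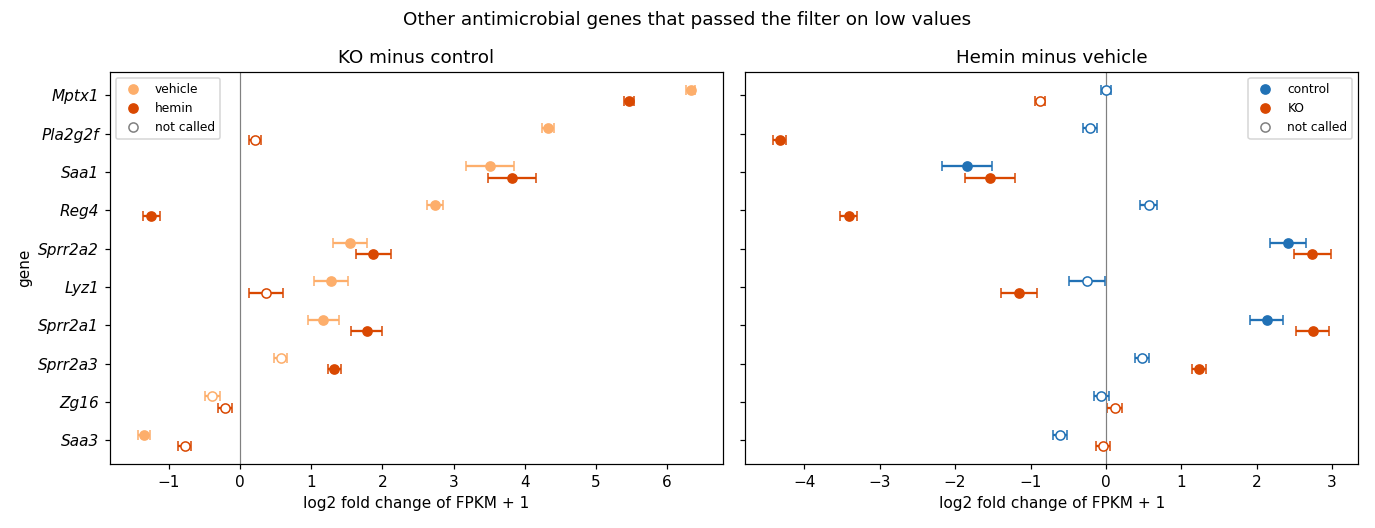
Log2 fold changes of FPKM + 1 with standard errors for the 10 other antimicrobial genes that passed the filter, by genotype in the left panel and by hemin in the right panel. Filled points were called by limma, and a reader should see *Pla2g2f* and *Reg4* far to the left with hemin in colonoids labelled KO.

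Of 16 genes related in sequence to the members, 3 passed the filter. This list too was chosen with earlier results of these data known, and nothing is read from its counts. *Rnase4*, which shares a locus with angiogenin, fell by 1.06 with the KO label under hemin (limma adjusted p = 7.18e-05). *Wfdc18*, a whey acidic protein gene, fell with hemin in controls, from a mean of 2.66 to 0.281 FPKM (limma adjusted p = 1.15e-05). *Ang* was not called.

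Of 28 genes of the signals known to induce these proteins, 25 were tested. As with the other lists, they were chosen with earlier results of these data known, and nothing is read from their counts. With vehicle 3 fell and none rose in the colonoids labelled KO, where 3.27% of all genes were called lower. They were *Socs3*, a STAT3 target that restrains cytokine signalling (-1.78), *Tlr2*, a receptor for bacterial lipopeptides (-1.66), and *Il4ra*, a receptor of interleukin-4 and interleukin-13 (-1.06). With hemin 1 fell, *Tlr2* (-1.78, limma adjusted p = 5.38e-07), against 2.91% of all genes. In controls hemin lowered 3, *Cebpb* (-1.43), *Tnfaip3* (-1.11) and *Il4ra* (-1.10), and raised none, against 5.93% of all genes lowered. Under the KO label it raised 3 receptor genes, *Il17ra* (1.16), *Il22ra1* (1.13) and *Il17rc* (1.11), and lowered none, against 4.87% of all genes raised. The hemin response differed between the genotypes for *Il22ra1*, the interleukin-22 receptor (1.32), for *Socs3* (1.26), and for *Fut2*, which fucosylates the surface (-1.27). Leaving out replicate 3 of the hemin-treated controls moved the count called by hemin in controls from 3 to 1, and took *Rnase4* out of the calls above. Leaving out replicate 1 or 2 of that group raised the count of signalling genes called by genotype with hemin from 1 to 2 or 3.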

How the data were processed

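RNA-seq of colonoids was analysed in 12 libraries, 3 in each of 4 groups taken from the sample labels. The authors deposited FPKM for 54532 genes with coordinates and lengths. The submitters' processing notes name fastp, HISAT2 2.0.5, featureCounts 1.5.0-p3 and mm10. The annotation release and the strand setting are not given in the sources used here, so antisense partners cannot be told apart. All values were whole multiples (tolerance 0.01) of the value of 1 fragment, which gave fragments per gene and a floor of 3 fragments in a library. Median-of-ratios factors were equal in all libraries, so the FPKM carry a scaling between libraries.

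Genes that reached 1 FPKM in 3 or more libraries were tested. In R 4.3.3, limma 3.58.1 modelled log2(FPKM + 1) by group, with no block and empirical Bayes with a trend, which left 8 residual degrees of freedom, and p-values were adjusted by Benjamini-Hochberg. Fold changes on this scale understate the change of low genes. Members and lists were chosen with earlier results of these data known. Named genes are all members, *Hmox1*, at most 3 called genes of each related list in each direction and comparison, the marker genes beside a result, and the 2 genes most like each member. A gene named for one comparison or list is also given in the others where it was called, so a comparison can show more than 3. *Zg16*, *Ang* and *Gm23935* fall outside this rule, and were picked with their values in view. Intervals are exact binomial at 95% on pooled fragments, which are not independent molecules, and cover counting error only. Pooled ratios without each library were added after seeing the data. In simulated data with 196 changed genes tested, 90.3% were recovered for hemin-treated genotypes. The median absolute log2 fold change there was 1.72, so this recovery does not speak for changes near 1. Figures were drawn with matplotlib 3.10.9.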

Additional observations from a re-analysis of the deposited data

Results flagged for a closer look

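These results were singled out because the response to hemin differed between the genotypes by the fitted interaction, with the response in colonoids labelled KO minus that in controls given on the log2 scale by limma. *Hmox1* differed by 2.81, with responses of 5.75 in controls and 8.55 in those labelled KO. Among other antimicrobial genes, *Reg4* differed by -3.98 and *Pla2g2f*, which passed the filter on low values only through vehicle-treated colonoids labelled KO, by -4.12. Among signalling genes, *Il22ra1* differed by 1.32, *Socs3* by 1.26 and *Fut2* by -1.27. Of the 8 goblet genes, 1 had a more positive and 7 a more negative response in those labelled KO, as did 2.57% and 2.56% of all genes, *Muc2* by -2.51, *Fcgbp* by -1.61, *Clca1* by -1.06, *Tff3* by -1.93, *Agr2* by -2.11, *Spdef* by -1.70, *Atoh1* by -1.03 and *Spink4* by 1.30. Of the 6 surface colonocyte genes, *Slc26a3* differed by -1.71, *Aqp8* by 2.48, *Car4* by -2.75 and *Guca2a* by -2.08. The causes were not tested. For the 10 antimicrobial genes themselves the difference between the responses is a description, from -2.40 for *Ang4* and -2.08 for *Reg3b* to 1.73 for *Slpi*. *Reg3b* was at the floor in colonoids labelled KO and *Slpi* in controls under both treatments, so the values of both depend on the pseudocount.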

How the results depend on the processing

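With a pseudocount of 0.1 in place of 1, the median difference of the 10 genes was -0.27 and -0.19 by genotype with vehicle and hemin, -0.64 by hemin in controls and 0.56 for the interaction (0.30 as reported). Genes called were 1342 by genotype with hemin and 1760 by hemin in controls, and 4 members, not 2, were separated as lower by genotype with hemin. With limma-voom on recovered fragments, calls by genotype with vehicle and hemin were 1302 and 1400, and by hemin in controls and in colonoids labelled KO 1828 and 2602. The medians were then -0.90 by genotype with vehicle, -1.03 by hemin in controls, -0.32 by hemin in colonoids labelled KO and 0.56 for the interaction, and 4 members were again separated as lower by genotype with hemin. Rescaling to TPM moved the median of all genes by hemin to -0.19 in controls and -0.31 in those labelled KO. It gave 1705 calls in controls, 264 higher and 1441 lower (277 and 756 as reported), and 2737 in those labelled KO, 403 and 2334 (620 and 1028 as reported), with a members' median of -0.63 in controls. By genotype with vehicle 710 were higher and 471 lower (450 and 416 as reported). For the interaction 275 were more positive and 533 more negative (328 and 326 as reported). Left without *Gm23935*, an alternative chosen after seeing the data, TPM gave 1606 and 2475 calls and 4 members lower by genotype with hemin. With a mean FPKM of at least 5, 392 and 422 genes were called by genotype, 629 and 1043 by hemin and 334 for the interaction, since fewer genes were tested. With either the smaller pseudocount or voom, 5 of the other antimicrobial genes, not 3, and 5 of the signalling genes, not 3, were called by hemin in controls. Other causes were not tested.

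Leaving out each library in turn gave 850 to 875, 759 to 844, 1014 to 1153, 1633 to 1681 and 625 to 694 calls in the same order. *Wfdc2* was no longer separated by hemin in controls without replicate 3 of that group. Same-numbered libraries of different groups had correlations of -0.33 to 0.18 (mean -0.04), and differently numbered ones of -0.39 to 0.34 (mean 0.02). No paired deviation was thus seen, and the replicate block gave 863, 761, 1028, 1649 and 639 calls. No direction of a member that was separated reversed under any alternative run. Sizes depended on the scaling. Rescaled to TPM, the difference was marked as moved in 4 of 5 comparisons for *Lypd8*, *Dmbt1*, *Pglyrp1*, *Ang4*, *Slpi*, *Retnlb* and *Reg3b*. For *Wfdc2* it moved in 1. Without *Gm23935* in the sum it moved in 1 for *Lypd8*, 2 for *Dmbt1*, 3 for *Pglyrp1* and *Ang4*, and 4 for *Slpi*, *Retnlb* and *Reg3b*. Libraries at or under 3 fragments limit what can be said of *Reg3g*, *Lcn2*, *Retnlb* and *Reg3b*, and of *Slpi* in controls. *Gm23935*, a short gene, held 1.18% to 29.0% of the FPKM sum of a library, which enters only the TPM alternatives.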
